A study of Homo sapiens with 10 samples.

Results

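SMARCB1 binding was described at the peaks of 2 CUT&RUN libraries of G401 cells in which SMARCB1 had been induced, by comparing the reads of each library with those of a library of GFP-induced cells over the same intervals. The members were all peaks of the 2 deposited SMARCB1 lists, 133297 in replicate 1 and 161710 in replicate 2, which together are 295007 of the 543439 peaks in the 8 lists of the series. Overlapping peaks were merged, and 87773 of the 179306 regions so made were held by both replicates. In each list the read count of the induced library and of the GFP library was divided by the length of the peak and by the size of the library, which gives a density in RPKM (reads per kb of length, per M reads sequenced). The log2 ratio of the induced over the GFP density is the main measure below.

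G401 is a rhabdoid tumour cell line with the genotype SMARCB1(-/-), and all samples of the series come from it. Doxycycline induced SMARCB1 in 1 arm and GFP, a fluorescent protein with no role in chromatin, in the control arm. Chromatin was profiled with a rabbit monoclonal antibody to SMARCB1 in 2 samples of SMARCB1-induced and 1 sample of GFP-induced cells, and with an antibody to BRD9 in 3 samples of each arm. A sample of SMARCB1-induced cells with rabbit IgG was not analysed here. The line carries no intact SMARCB1 of its own, so the induced protein is a re-expressed one, and its amount per cell, the promoter of the construct and the length of induction are not given in the sources used here.

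SWI/SNF complexes use the energy of ATP to slide and evict nucleosomes, and they keep enhancers and promoters open. SMARCB1 is a core subunit of the canonical and the polybromo-associated forms of the complex, in which it helps to engage the nucleosome. Its loss is the defining lesion of rhabdoid tumours. BRD9 is a bromodomain subunit of the non-canonical form, which assembles without SMARCB1. In CUT&RUN an antibody tethers a nuclease to its target, and the DNA fragments cut loose around the target are sequenced. With the same antibody, cells that lack the target give the background of the assay: fragments released from open or abundant DNA without the protein.

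The induced libraries held 64.2 M and 59.7 M reads. The control library of both lists held 49.6 M reads, and in the 211 intervals that the 2 lists have in common its read count was equal in 211, while the induced count was equal in 17. So 1 GFP library stands behind both lists, and its spread between cultures could not be measured. The name of each list pairs it with GFP, and the lists themselves do not say which library that was. Nothing in the labels says whether the replicates came from separate cultures, so spreads between them may be technical. Peaks were called for being higher in the induced library, so an excess over GFP is fixed by the choice of peaks, and it is described here without a test. Densities were set against an even spread of a library over the chromosomes, which would be 0.323 RPKM.

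Over their peaks, the SMARCB1-induced libraries were about 3 times as dense as the GFP library. The median density was 1.42 RPKM in replicate 1 and 1.40 RPKM in replicate 2, which was 4.38 and 4.34 times an even spread. The GFP library had a median of 0.461 and 0.455 RPKM over the same intervals, 1.43 and 1.41 times an even spread. The median log2 ratio was 1.63 in replicate 1 (quartiles 1.21 and 2.12) and 1.66 in replicate 2 (quartiles 1.21 and 2.16), a mean of 1.65 ± 0.026 (SD, n = 2). The replicates thus had nearly the same middle and the same quartiles. A median peak held 55 and 53 induced reads and 15 and 16 GFP reads, so the ratio of a single narrow peak is coarse.

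The induced library was at least 2-fold denser at 84.4% of the peaks of replicate 1 and at 84.4% of those of replicate 2. It was at least 4-fold denser at 30.5% and 32.1%, and at least 8-fold denser at 4.11% and 4.74%. In both lists at once, 84.2% of the 87773 regions passed 2-fold, 26.8% passed 4-fold and 2.03% passed 8-fold. These shares are all of the peaks or regions, and since the same contrast chose the peaks, nothing is read from them beyond the size of the excess. At the other end, the GFP library was the denser one at 51 peaks of replicate 1 and 387 peaks of replicate 2. The GFP library had 0 reads at 424 and 487 peaks (0.318% and 0.301%), where 3 reads were put in its place, so that the ratio there is a lower bound.

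Summed over all peaks, the reads above the level of the GFP library were 19.1% of the induced library in replicate 1 and 27.0% in replicate 2. The size of the excess depends on how the GFP library is scaled. With library sizes, the GFP reads were multiplied by 1.29 and 1.20. The reads outside the peaks gave factors of 1.03 and 0.846, and the factors that the authors used in their deposited normalized log2 fold, recovered from the files, were 0.881 and 0.662. With the authors' factors the mean of the median log2 ratios was 2.35 and the share of peaks at least 4-fold denser was 70.0%, against 1.65 and 31.3% with library sizes. A factor moves the log2 ratio of all peaks of a list by the same amount, so differences between classes in the median log2 ratio are not touched by it. Shares past a fixed fold, and shares of the reads above the GFP level, do depend on the factor, also by class.

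**Figure D1:**
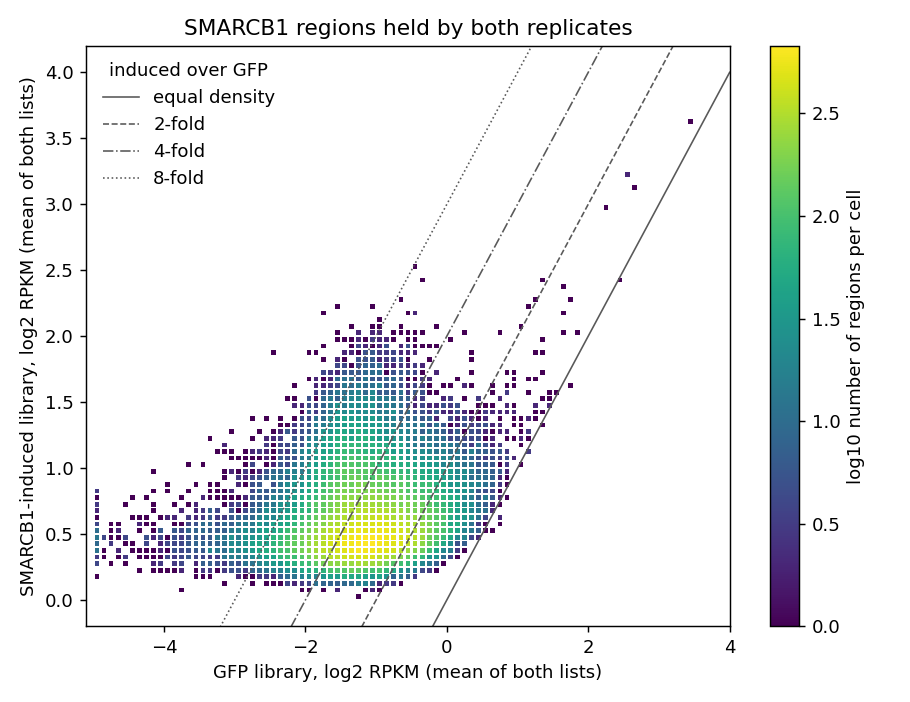
Density of the GFP library (x axis) and of the SMARCB1-induced libraries (y axis) in log2 RPKM, as means of both lists, for the 87773 regions held by both replicates; colour is the log10 number of regions per cell of the grid, GFP densities below -5 are drawn at that edge, and the lines mark equal density and 2-fold, 4-fold and 8-fold excess. Most regions lie between the 2-fold and 8-fold lines, and the few densest regions of the GFP library, on the right, lie from the line of equal density up to below the 2-fold line.

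The widest SMARCB1 peaks had the largest excess over GFP. In peaks of 10000 bp or more the median log2 ratio was 2.61 in replicate 1 and 2.72 in replicate 2, a 6.11-fold and 6.59-fold excess. In peaks under 500 bp it was 1.43 in both lists, a 2.70-fold and 2.69-fold excess. The difference between the widest and the narrowest class was 1.18 and 1.29 (mean 1.23 ± 0.081, SD, n = 2), and in both lists the median was higher in each of the 6 width classes than in the narrower ones.

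Both libraries changed with width, in different classes. The GFP density fell from 0.522 and 0.518 RPKM under 500 bp to 0.461 and 0.455 RPKM at 500 to 999 bp and 0.426 and 0.423 RPKM at 1000 to 1999 bp. Over the same classes the induced density was 1.40 and 1.39 RPKM, then 1.35 and 1.34 RPKM, then 1.46 and 1.46 RPKM, so up to 2000 bp most of the gain in the ratio was on the GFP side. In wider peaks the GFP density was nearly level, at 0.424 and 0.423 RPKM from 10000 bp, and the induced density rose to 1.71 and 1.74 RPKM at 2000 to 4999 bp and to 2.60 and 2.78 RPKM in the widest class. The share of peaks at least 4-fold denser went from 24.1% in the narrowest class of both lists to 94.2% and 94.4% in the widest. Peaks of 10000 bp or more were 0.651% and 0.816% of the lists, 868 and 1320 peaks, and held 18.1% and 22.3% of all reads above the GFP level. Peaks under 500 bp were 37.4% and 35.7% of the lists and held 7.79% and 6.31% of those reads. A median peak under 500 bp held only 31 and 28 induced reads, and one of 10000 bp or more held 2326.5 and 2355. Width was set by the same calling that chose the peaks, so this too is a description.

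**Figure D2:**
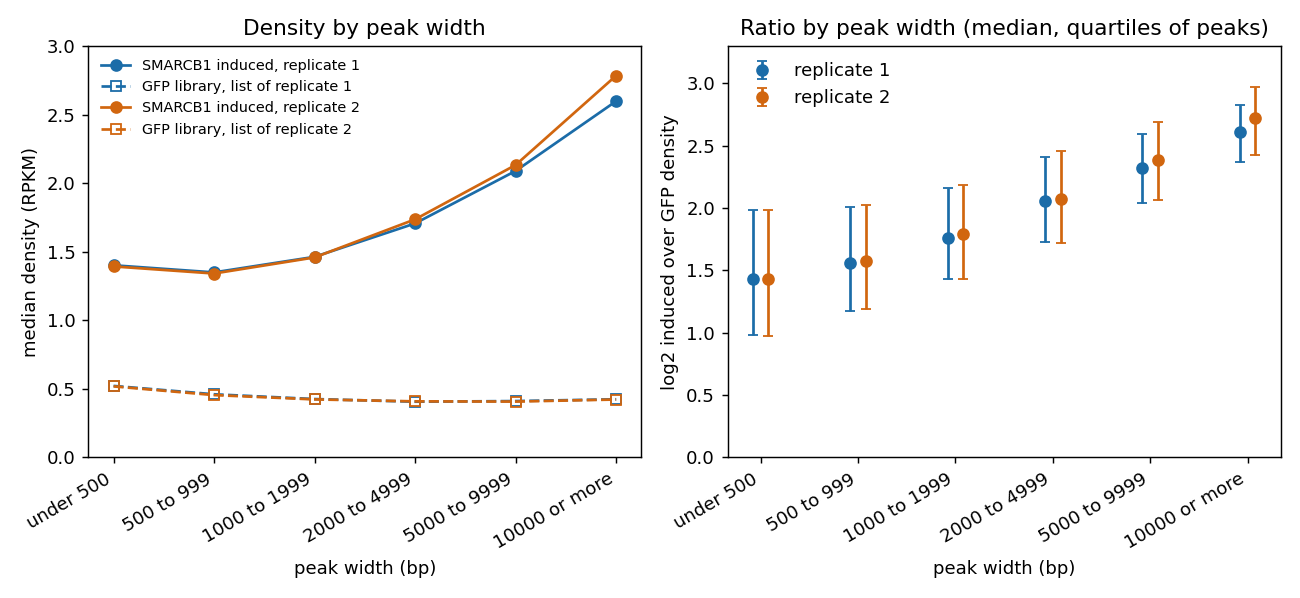
Median density in RPKM of each induced library (filled circles) and of the GFP library (open squares) by peak width in bp, left, and the log2 ratio of induced over GFP density, right, with the median as point and the quartiles of the peaks as bars. The induced density dips from 1.40 and 1.39 RPKM to 1.35 and 1.34 RPKM at 500 to 999 bp and then rises to 2.60 and 2.78 RPKM, and the GFP density falls from 0.522 and 0.518 RPKM to 0.426 and 0.423 RPKM at 1000 to 1999 bp and is nearly level beyond.

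Peaks found in both replicates stood further above GFP than peaks of 1 list alone. In replicate 1, 25127 peaks overlapped no peak of replicate 2, with a median log2 ratio of 1.48 against 1.67 for those that did. In replicate 2, 66406 peaks were in that list alone, with 1.45 against 1.80. The peaks of 1 list alone were narrow, with a median width of 325 and 400 bp against 775 and 1050 bp, and held a median of 30 and 32 induced reads. They held 4.19% and 9.64% of the reads above the GFP level. All peaks of 5000 bp or more overlapped a peak of the other list, in both lists, whereas under 500 bp 58.3% of the peaks of replicate 1 and 24.3% of those of replicate 2 did.

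The 87773 regions were made by overlap of the lists, so how close the replicates lie within them is a description. A region held a single peak of each list in 69092 cases (78.7%), and there the apex of one replicate lay a median of 134 bp from that of the other (quartiles 43 and 268 bp), and within 200 bp in 62.7% of these. The log2 ratios of a region in the 2 lists were within 0.5 of each other in 85.4% of the regions, with a median distance of 0.23. Replicate 1 had the higher ratio in 30.7% of the regions, and the median ratio was 1.67 in replicate 1 and 1.80 in replicate 2. Across regions the ratios of the lists correlated with r = 0.84 and rho = 0.85 (n = 87773 regions), a description in which both lists share the GFP library. The log2 induced densities alone, which share no library, correlated with r = 0.77 and rho = 0.65 over 87591 regions with GFP reads in both lists.

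Regions were then classed by how dense the GFP library was, since signal without SMARCB1 marks the background of the assay. In 17168 regions (19.6%) the GFP library was below an even spread, in 54653 (62.3%) it was 1 to 2 times even, and in 15952 (18.2%) it was above 2 times even. The median induced density moved little between these classes: it was 1.39 and 1.44 RPKM in the first, 1.43 and 1.49 RPKM in the second and 1.55 and 1.52 RPKM in the third. The log2 ratio therefore followed the GFP density, with medians of 2.49 and 2.55, of 1.66 and 1.79, and of 0.91 and 1.04. Of the regions below an even spread, 83.5% were at least 4-fold denser in both induced libraries. Of the regions above 2 times even, 61 regions (0.382%) were. The ratio has the GFP density as its denominator, and the induced reads had to pass the peak call in every class, so both the order of the ratio and the narrow range of the induced density are in part built in.

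The induced density itself split the regions differently. The top quartile of regions by mean induced density had medians of 1.84 and 2.01 RPKM and a median width of 2300 bp, against 1.26 and 1.26 RPKM and 1050 bp in the lowest quartile. It held 66.8% and 65.7% of the reads above the GFP level in the regions. Its GFP density was 0.468 and 0.457 RPKM, against 0.419 and 0.403 RPKM in the lowest quartile. In the quartile next below the top it was 0.489 and 0.465 RPKM, so it did not rise throughout. Regions above 2 times even in the GFP library were found in all quartiles, with 1919 of them in the lowest and 5009 in the highest. Of the regions below an even spread, 5657 were in the lowest and 3314 in the highest, so high induced density was more frequent at regions dense in the GFP library. Peaks had to pass the call above the GFP library, so this is in part built in.

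By chromosome, the excess was lowest on chromosomes 8 and 19 and highest on X and Y. The median log2 ratio was 1.32 and 1.23 on chromosome 8 and 1.27 and 1.34 on chromosome 19. Among the numbered chromosomes the highest was chromosome 18, with 1.75 and 1.79, and the median chromosome had 1.67 and 1.69. On X the ratio was 2.50 in replicate 1 and 2.58 in replicate 2. Y, with only 170 and 210 peaks, had 2.51 and 2.49. The order was close to the same in both lists, with r = 0.97 and rho = 0.98 over the 22 numbered chromosomes, whose points share the GFP library.

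These differences lay in the GFP library more than in the induced ones, whose range the peak call limits. Over the numbered chromosomes the median induced density ran from 1.39 to 1.56 RPKM in replicate 1 and from 1.39 to 1.45 RPKM in replicate 2, highest on chromosome 8, which chromosome 19 equalled in replicate 2. The GFP density ran from 0.424 to 0.633 RPKM and from 0.418 to 0.627 RPKM, lowest on chromosome 13 and highest on chromosome 8. On X the induced density was 1.37 and 1.38 RPKM and the GFP density only 0.244 and 0.236 RPKM, 0.544 and 0.537 times that of the other numbered chromosomes (those without 8, 19 and the first 30 Mb of 7). Across the numbered chromosomes the median ratio fell with the GFP density (r = -0.99, rho = -0.99, n = 22, a description of a ratio against its own denominator). It fell with the induced density too (r = -0.95, rho = -0.88).

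**Figure D3:**
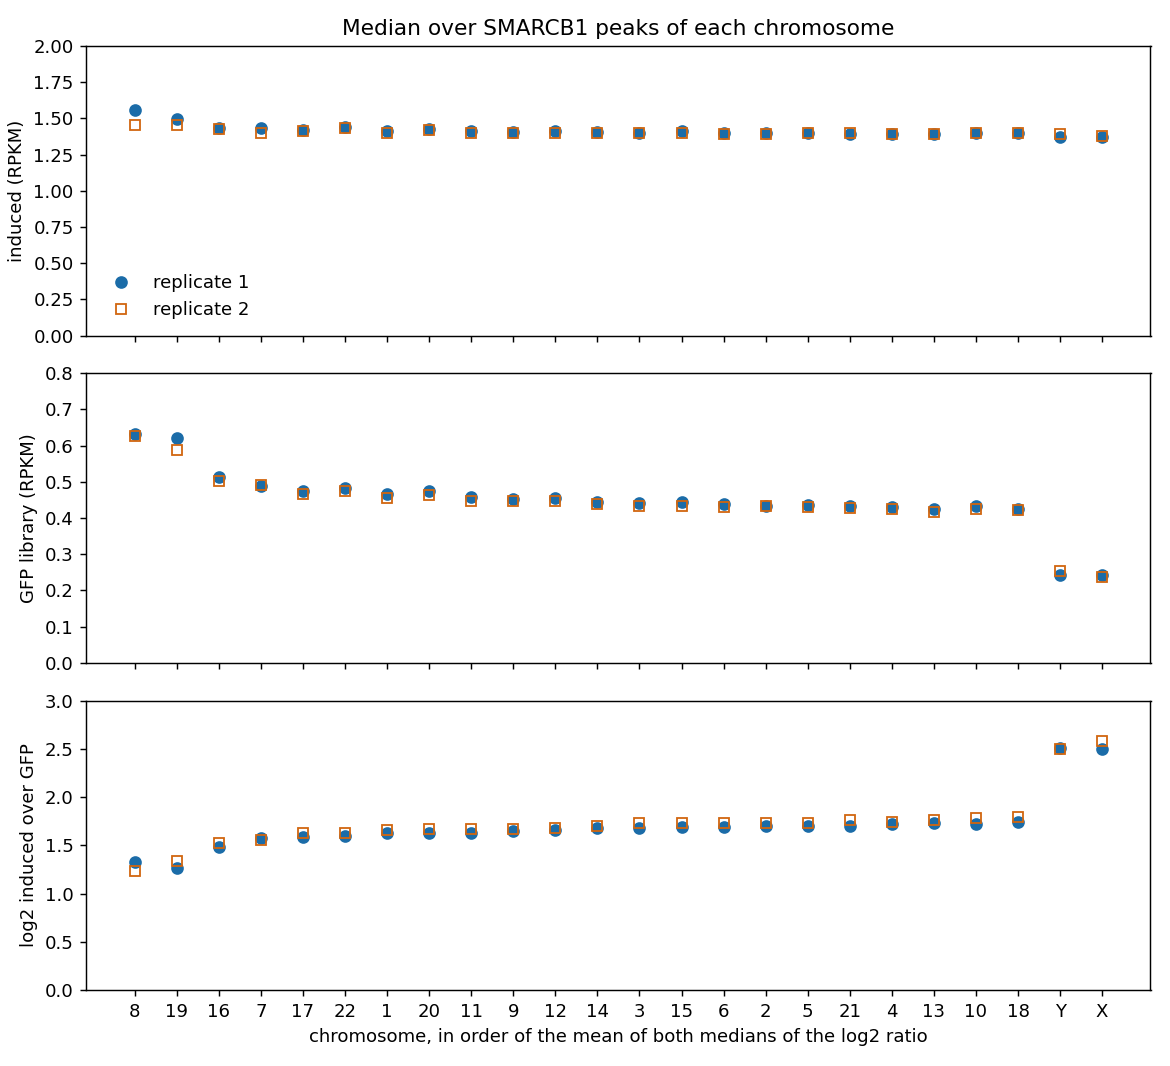
Median over the SMARCB1 peaks of each chromosome of the induced density (top, RPKM), the GFP density (middle, RPKM) and the log2 ratio (bottom), for the list of replicate 1 (filled circles) and replicate 2 (open squares), with chromosomes in the order of the ratio. The induced density is nearly flat, and chromosomes 8 and 19 at the left and X and Y at the right differ in the GFP density, which is 0.633 and 0.627 RPKM on chromosome 8 and 0.244 and 0.236 RPKM on X.

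The GFP density changed in long stretches. Peaks were grouped in 10 Mb steps with at least 100 peaks in each list, after the chromosome values had been seen. All 15 steps of chromosome 8 had a median GFP density between 0.603 and 0.681 RPKM in the list of replicate 1 and between 0.586 and 0.691 RPKM in that of replicate 2. The 3 steps of the first 30 Mb of chromosome 7 lay between 0.607 and 0.672 RPKM and between 0.615 and 0.687 RPKM. The 13 further steps of chromosome 7 lay between 0.372 and 0.510 RPKM and between 0.374 and 0.477 RPKM, so the level changed within the chromosome. The 6 steps of chromosome 19 lay between 0.524 and 0.748 RPKM and between 0.492 and 0.717 RPKM, and 3 of them reached 0.6 RPKM in the list of replicate 1. Of the 241 steps of the numbered chromosomes without 7, 8 and 19, 2 reached 0.6 RPKM in the list of replicate 1. The median of the 241 steps was 0.448 and 0.440 RPKM.

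Along these stretches the induced density rose by less than the GFP density. Against the other numbered chromosomes, the median induced density on chromosome 8 was 1.11 and 1.04 times as high, and the GFP density was 1.41 and 1.43 times as high. On chromosome 19 the induced density was 1.07 and 1.04 times as high and the GFP density 1.38 and 1.34 times as high. In the first 30 Mb of chromosome 7 the induced density was 1.10 and 1.02 times as high and the GFP density 1.40 and 1.44 times as high. The log2 ratio there was 1.31 and 1.19, near that of chromosome 8, and it was 1.68 and 1.73 on the rest of chromosome 7. In peaks of 5000 bp or more the same stretches still differed: the ratio was 2.05 and 2.09 on chromosome 8, 2.10 and 2.11 in the first 30 Mb of chromosome 7, and 2.44 and 2.51 on the other numbered chromosomes. The number of DNA copies per cell was not measured in these files, and its part in these values was not tested.

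**Figure D4:**
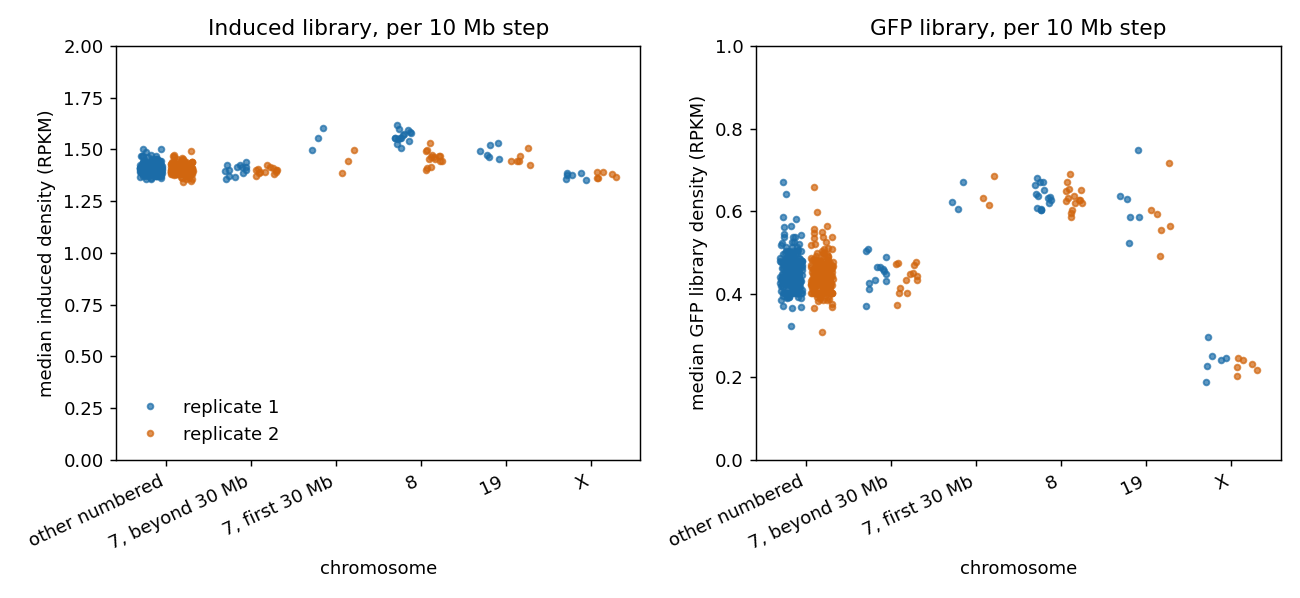
Each point is the median density over the SMARCB1 peaks of a 10 Mb step in RPKM, for the induced library (left, axis from 0 to 2) and the GFP library (right, axis from 0 to 1), by list and chromosome; points are spread sideways for display. The GFP density of chromosome 8 and the first 30 Mb of chromosome 7 lies at 0.586 RPKM or more in all steps, and X lies at 0.298 RPKM or less.

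Peaks were also unevenly spaced. Chromosome 17 had the most, 70.4 and 83.2 peaks per Mb, and chromosome 21 the fewest of the numbered ones, 24.1 and 29.2 per Mb, while X had 8.51 and 11.6 per Mb. Of the 2656 windows of 1 Mb with a peak, the most covered 265 held 39.6% of the base pairs under peaks. The most covered was on chromosome 7 from 83 to 84 Mb, with 55.1% and 62.8% of its length under SMARCB1 peaks, against a median window of 2.88% and 4.07%. The reads of all its peaks together were 5.08-fold and 5.76-fold denser in the induced libraries than in the GFP library. Next came chromosome 2 from 150 to 151 Mb, with 53.5% and 60.5% under peaks at 6.06-fold and 6.98-fold.

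Single regions are named by their position in build hg19, without genes, because no annotation of that build was used here. A region had to hold at least 10 GFP reads in each list, which 70820 regions (80.7%) on the numbered chromosomes and X did. The intervals given with folds are exact binomial 95% intervals of the reads and cover counting error only. All values of these regions describe how they were chosen.

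The 5 regions with the highest ratio were a few kb wide and had very low GFP density. The highest was chrX:114848476-114852076, with 320 and 375 induced reads against 10 and 10 GFP reads, a 24.7-fold excess in replicate 1 (13.3 to 52.0) and 31.2-fold in replicate 2 (16.8 to 65.6). Its induced density was 1.42 and 1.80 RPKM, near the median peak in replicate 1 and above the upper quartile of 1.58 RPKM in replicate 2, and its GFP density was 0.0576 RPKM in both. A pair of further regions on X, chrX:31603351-31612726 and chrX:31570676-31574226, had folds of 20.9 and 26.2 and of 15.9 and 21.0. On chromosome 1, chr1:103859876-103863901 reached 18.5-fold and 23.2-fold. Of the 5, chr1:17453651-17457176 had the most induced signal, 3.25 and 4.01 RPKM against 0.177 and 0.200 RPKM, at 18.4-fold and 20.0-fold. A BRD9 peak lay in 0 of 3 GFP lists and 3 of 3 SMARCB1 lists at the latter and at both chrX:31603351-31612726 and chrX:31570676-31574226. At the highest, chrX:114848476-114852076, BRD9 was in 0 of 3 GFP lists and 1 of 3 SMARCB1 lists. At chr1:103859876-103863901, it was in 3 of 3 GFP lists and 2 of 3 SMARCB1 lists.

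The 5 regions with the most reads above the GFP level were domains 101250 to 193248 bp wide. The largest, chr7:80347976-80541224, held 39141 and 44494 induced reads against 4249 and 4270 GFP reads, a 7.11-fold (6.89 to 7.34) and 8.67-fold (8.40 to 8.94) excess. Its induced density was 3.18 and 3.86 RPKM, and its GFP density was 0.447 and 0.446 RPKM, close to the median of all peaks. The next were chr2:58710176-58854226 with 7.35-fold and 9.09-fold, chr9:3891576-4002526 with 7.13-fold and 8.73-fold, chr6:142623826-142725076 with 8.70-fold and 10.5-fold and chr12:116546251-116667976 with 7.11-fold and 8.72-fold. In all 5 the fold was higher in replicate 2, and the counting intervals of the replicates did not overlap, so their difference is larger than counting error. BRD9 was found in 3 of 3 SMARCB1 lists at all 5. In GFP-induced cells it was found in 3 of 3 lists at the first 3, in 0 of 3 at chr6:142623826-142725076 and in 2 of 3 at chr12:116546251-116667976.

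Of the 5 regions densest in the GFP library, 2 were near equal density in both libraries and 3 were moderately denser in the induced ones. At chr22:18883201-18884214 the induced density was 12.1 and 12.9 RPKM and the GFP density 11.4 and 10.9 RPKM, a 1.06-fold (0.946 to 1.18) and 1.19-fold (1.06 to 1.32) excess. In replicate 1 the interval of that fold includes equal density. A further 3 regions lay within the same part of chromosome 22, at chr22:18879451-18880882, chr22:18881276-18882309 and chr22:18720776-18721820, with GFP densities between 5.54 and 6.50 RPKM and folds between 1.25 and 1.66, whose intervals all exclude equal density. The fifth, chr3:73159776-73160276, had 4.70 and 5.94 RPKM in the GFP library and 4.67 and 5.91 RPKM in the induced ones. A BRD9 peak was found in 3 of 3 lists of both arms at all 5.

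The 5 regions with the lowest ratio were small peaks at which neither library stood above the other. At chr17:80317401-80317970 the induced density was 3.67 and 2.40 RPKM and the GFP density 3.77 and 3.06 RPKM, a fold of 0.974 (0.702 to 1.36) and 0.783 (0.570 to 1.07). The other four, chr7:131339326-131339651, chr14:24036740-24037051, chr17:56849476-56849751 and chr3:172409176-172409526, held 21 to 33 induced reads and 21 to 27 GFP reads in each list, with folds between 0.797 and 1.02. All their intervals include equal density. The lists thus hold a few peaks with no excess over GFP by library size. With the authors' factors the same reads stand higher, by 0.55 in replicate 1 and 0.86 in replicate 2 on the log2 scale.

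BRD9 was measured in other libraries, and the SMARCB1 lists were made without them, so it was compared between the arms at the SMARCB1 regions. The regions were called for more signal in SMARCB1-induced cells than in a GFP library, and GFP-induced cells have no SMARCB1 list. The choice of regions is therefore not neutral between the arms, and separate BRD9 libraries do not remove this. All BRD9 tests below carry that limit. A BRD9 peak lay in 7.41%, 11.6% and 9.11% of the 87773 regions in the 3 lists of GFP-induced cells. It lay in 22.4%, 21.5% and 22.5% of them in the 3 lists of SMARCB1-induced cells. Every list of SMARCB1-induced cells was above every list of GFP-induced cells. BRD9 was not counted in windows outside the SMARCB1 peaks, so this difference is not shown to be particular to the regions. The means were 9.38 ± 2.11% and 22.1 ± 0.506% (SD, n = 3 each), 12.7 points apart, the smallest p that 3 lists against 3 can give (two-sided exact permutation test, p = 0.1, adjusted over 4 tests 0.1). The BRD9 libraries held 10.2 M to 12.1 M reads in the GFP arm and 10.1 M to 13.9 M reads in the SMARCB1 arm. The control library had the same size in all BRD9 lists, 23.1 M reads, so the lists of both arms may share 1 control. Which sample it was is not identified here, and its spread is not covered by the tests. The lists held 45673, 35252 and 38825 BRD9 peaks in the GFP arm and 46448, 39949 and 42285 in the SMARCB1 arm. With equal numbers of the top peaks of each list the difference was 10.9 points, and with the BRD9 peaks at or above the median score of each list it was 8.06 points.

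At regions held by 1 SMARCB1 replicate alone, BRD9 was rare in both arms. Of the 25127 merged regions held by replicate 1 alone, 1.50%, 1.30% and 1.68% had BRD9 in GFP-induced cells and 1.46%, 1.11% and 1.43% in SMARCB1-induced cells. Of the 66406 held by replicate 2 alone, it was 2.05%, 2.02% and 2.23% against 1.99%, 1.58% and 1.87%. The arms overlapped in the first set, and in the second the SMARCB1 arm was the lower one, at 1.82 ± 0.209% against 2.10 ± 0.110% (SD, n = 3 each). These differences were not tested. The regions were narrow, with median widths of 325 and 400 bp against 1225 bp. At the regions of both replicates, 11835 (13.5%) had BRD9 in all 3 lists of SMARCB1-induced cells, and 4002 (4.56%) in all 3 lists of GFP-induced cells.

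BRD9 in SMARCB1-induced cells was most frequent where SMARCB1 stood furthest above GFP, and in GFP-induced cells it was not. From the lowest to the highest quartile of the regions by log2 ratio, the mean share with BRD9 in SMARCB1-induced cells was 12.8 ± 0.373%, 15.5 ± 0.433%, 22.6 ± 0.609% and 37.6 ± 0.703% (SD, n = 3 each). In GFP-induced cells it was 11.8 ± 3.08%, 9.17 ± 2.26%, 8.10 ± 1.76% and 8.50 ± 1.35%. In the lowest quartile the lists of the arms overlapped, with 8.94%, 15.0% and 11.3% after GFP induction and 12.7%, 12.4% and 13.2% after SMARCB1 induction. In the highest quartile they were far apart, with 7.19%, 9.89% and 8.41% against 38.2%, 36.8% and 37.9%. The difference between the highest and the lowest quartile was -1.75, -5.15 and -2.86 points in the GFP lists and 25.5, 24.4 and 24.7 points in the SMARCB1 lists. The arms thus differed by 28.1 points in it (two-sided exact permutation test, p = 0.1, the smallest possible, adjusted p = 0.1). Ratio and width go together, and among regions of 1000 to 1999 bp alone the difference was -11.8 points in the GFP lists and 7.64 points in the SMARCB1 lists, 19.5 points apart. The quartiles are themselves sorted by a contrast of the 2 arms, signal of SMARCB1-induced cells over that of the GFP library. The median GFP-library density was 0.293 RPKM in the highest quartile in both lists, and 0.735 and 0.674 RPKM in the lowest. The sorting is thus not neutral between the arms, and the test cannot separate BRD9 from it.

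By GFP-library density, the BRD9 share after GFP induction rose from class to class, and after SMARCB1 induction it was nearly flat. In GFP-induced cells BRD9 lay in 2.72 ± 0.524% of the regions below an even spread in the GFP library, in 8.87 ± 1.89% of those at 1 to 2 times even and in 18.3 ± 4.59% of those above it (SD, n = 3 each). In SMARCB1-induced cells it lay in 20.0 ± 0.824%, 23.2 ± 0.540% and 20.8 ± 0.213%. So the share after SMARCB1 induction was 7.36 times that after GFP induction at the regions with little GFP signal, and 1.14 times at the dense ones. At the dense regions the lists overlapped, with 14.1%, 23.2% and 17.5% against 20.7%, 20.6% and 21.0%. The dense minus the sparse class was 11.9, 19.9 and 14.9 points in the GFP lists and -0.084, 1.47 and 0.813 points in the SMARCB1 lists, a difference of -14.8 points (two-sided exact permutation test, p = 0.1, the smallest possible, adjusted p = 0.1). The dense regions were narrower, with a median width of 900 bp against 1200 bp in the sparse class. Among regions of 1000 to 1999 bp alone, the dense minus the sparse class was 20.4 points after GFP induction and 9.60 points after SMARCB1 induction. Within that width the share after SMARCB1 induction was thus not flat. The classes were cut on the density of a library of GFP-induced cells, and the induced reads had to pass the peak call in every class. This classing is not neutral between the arms, so neither the 7.36 and 1.14 times nor the test separates BRD9 from it.

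The widest SMARCB1 regions carried BRD9 most often in both arms. At 10000 bp or more, 55.2 ± 4.08% of 1542 regions had BRD9 after GFP induction and 91.3 ± 1.10% after SMARCB1 induction (SD, n = 3 each). At 2000 to 4999 bp the shares were 13.9 ± 2.92% and 41.2 ± 0.869%, and at 1000 to 1999 bp 7.33 ± 1.98% and 18.6 ± 0.777%. Under 500 bp they were 3.09 ± 1.09% and 2.45 ± 0.105%, with no gap between the arms. At 500 to 999 bp the lists overlapped too, with 3.23%, 6.27% and 3.97% after GFP induction and 7.09%, 6.02% and 6.40% after SMARCB1 induction. A wide region offers more base pairs to overlap, so the shares above are compared between the arms within a class. The wide minus narrow difference below is not within a class. It is given in points, and the shares over all regions already differed, at 9.38% and 22.1%. Width was set by calling on the signal of SMARCB1-induced cells, so this difference is not separate support beside the first test. Between regions of 2000 bp or more and those under 1000 bp the share differed by 12.7, 16.2 and 15.4 points in the GFP lists and by 42.0, 43.1 and 44.2 points in the SMARCB1 lists, 28.4 points apart (two-sided exact permutation test, p = 0.1, the smallest possible, adjusted p = 0.1). By induced density, the lowest quartile of regions had BRD9 in 3.06 ± 0.200% and 5.49 ± 0.559%, and the highest in 22.2 ± 4.68% and 56.1 ± 0.267%.

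**Figure D5:**
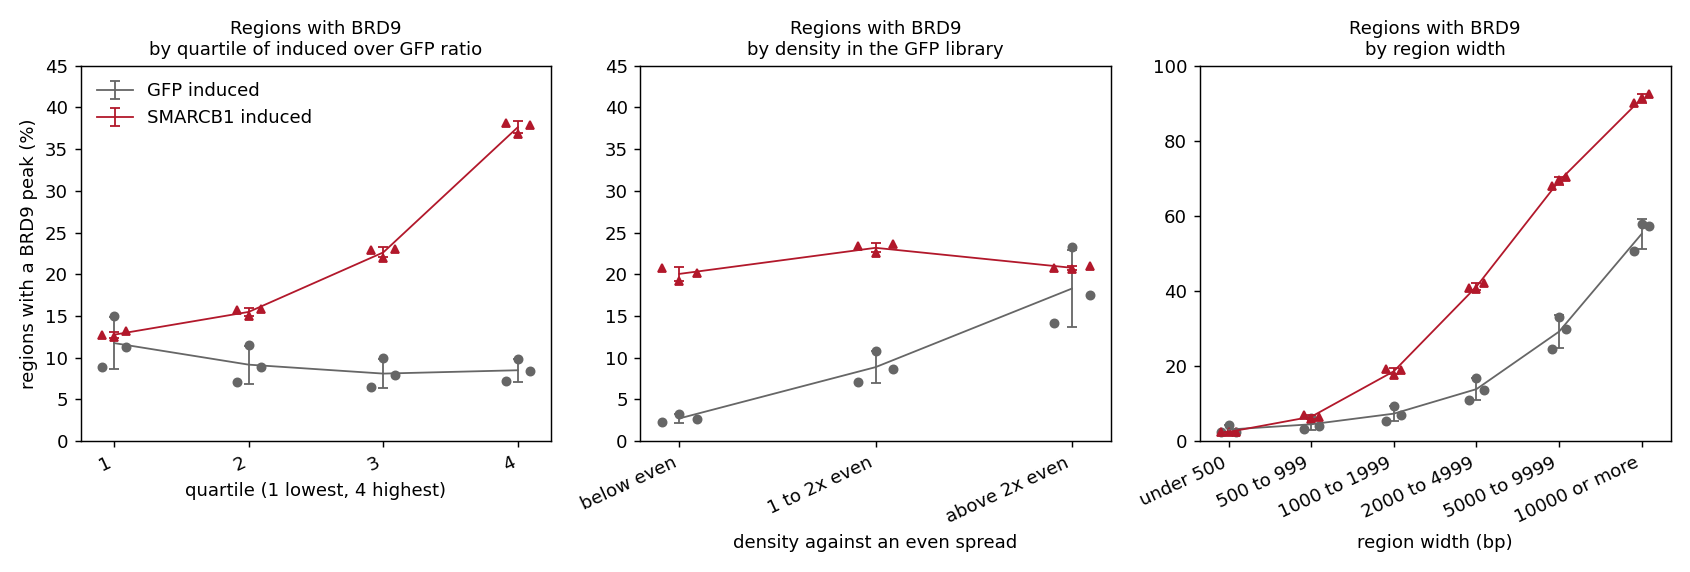
Percentage of the SMARCB1 regions held by both replicates that contain a BRD9 peak, by quartile of the log2 ratio of induced over GFP density (left), by GFP-library density against an even spread (middle) and by region width in bp (right); points are the 3 lists of each arm (circles GFP induced, triangles SMARCB1 induced), lines join the means and bars are SD. The arms overlap in the lowest ratio quartile, in the regions dense in the GFP library and in both width classes under 1000 bp. They are furthest apart on the ratio axis in the highest quartile, at 8.50% against 37.6%.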

How the data were processed

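Reads were counted per peak before deposit, and the deposited peak lists give these counts unscaled, per the file headers, for the profiled library and its control. The lists also give RPKM values made by the authors from those counts, and 2 log2 fold columns by the authors, of which the normalized one carries a factor on the control reads. As deposited, a peak's score is −log10 of its false discovery rate, at least 4.00 in both SMARCB1 lists. Per the submitters' processing notes, BWA 0.7.12-r1039, SAMtools, bedtools, DiffBind and edgeR were among the tools, and hg19, GRCh37 and ASM584v2 among the builds. The peak caller is not given in the sources used here. Each list holds 18 columns.

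Library sizes were recovered as reads over length and RPKM. Each density was reads divided by peak length and library size, and GFP counts of 0 were set to 3. Regions were unions of peaks sharing at least 1 bp. Read depth sets the precision: a median peak held 15 or 16 GFP reads. BRD9 shares were tested by exact permutation of the 3 and 3 lists (two-sided), adjusted by Benjamini-Hochberg over 4 tests.

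Named regions were the 5 with the highest ratio, the most reads above GFP, the highest GFP density and the lowest ratio, among those with at least 10 GFP reads in each list. The members and classes were chosen with earlier results of these data known. The alternatives were other scalings, 1 added read, the higher-scoring peaks, other overlaps and merging, equal numbers of BRD9 peaks, leaving out replicates or chromosomes, and a replicate block. The code was tested on simulated lists. Genes, sequence content and motifs were not analysed here, as no hg19 genome was used. Computations used Python 3.11.15, numpy 2.4.6, pandas 2.3.3, scipy 1.17.1 and matplotlib 3.10.9.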

Additional observations from a re-analysis of the deposited data

Results flagged for a closer look

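The relation of BRD9 to the SMARCB1 excess differed between the arms. The share of regions with BRD9 in the top minus the bottom quartile of the log2 ratio was 25.5, 24.4 and 24.7 points in the lists of SMARCB1-induced cells. For GFP-induced cells it was -1.75, -5.15 and -2.86 points, so all lists of one arm lay above 0 and all of the other below it. The difference of 28.1 points was tested by an exact permutation of the lists, with the smallest p that 3 against 3 can give (p = 0.1). Neither the choice of the regions nor their sorting by the ratio is neutral between the arms, and the test cannot separate BRD9 from either. The cause of the difference was not tested.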

How the results depend on the processing

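Of 85 alternative values, 71 were labelled the same, 14 moved and 0 changed direction. For the BRD9 results the label looked at direction only, whatever the size. For the peak values it meant a change within the SD between replicates, and for the number of regions a change within a set ratio. Some values could not change, such as class differences in the median ratio under another scaling factor, or the differences with the replicate block. Scaling by the reads outside peaks gave a mean median log2 ratio of 2.07 and 54.0% of peaks at least 4-fold denser. The authors' factors gave 2.35 and 70.0%. With 1 read added to both libraries these were 1.57 and 26.9%, and the widest minus the narrowest class was 1.34. With peaks at or above the median score they were 1.82, 39.1% and 1.15, and 53165 regions were held by both replicates. Without chromosomes 8, 19, X, Y and the first 30 Mb of 7, chosen after seeing the data, they were 1.69 and 32.9%. The authors' factors and the width class of 1000 to 1999 bp were also chosen after seeing the data.

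Leaving out a SMARCB1 replicate gave a median ratio of 1.63 to 1.66, a 4-fold share of 30.5 to 32.1%, a width difference of 1.18 to 1.29, and a difference between the extreme chromosomes of 1.25 to 1.35. The lowest chromosome was 19 in replicate 1 and 8 in replicate 2. Leaving out each BRD9 list in turn gave 11.8 to 13.9 points for the BRD9 share, 27.2 to 28.9 for the ratio quartiles, -16.7 to -12.6 for dense minus sparse and 27.3 to 29.1 for wide minus narrow. With the replicate block (paired by number, an exact sign-flip test over 3 pairs) each of the 4 BRD9 results had p = 0.25, the smallest possible, at the same differences of 12.7, 28.1, -14.8 and 28.4 points. That p says nothing about stability. Same-numbered lists were not taken as pairs in the main tests. The correlations of their deviations from the group means were 0.0051, 0.016 and 0.0074 over regions. Most regions had no BRD9 in any list of an arm (84.5% in the GFP arm, 67.8% in the SMARCB1 arm), so such low values do not exclude a shared batch. With classes from 1 SMARCB1 list, the difference between the ratio quartiles was 26.2 to 29.1 points.

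With BRD9 peaks at or above the median score, the BRD9 share differed by 8.06 points. The comparison of sequence content was not run. Depth limits single narrow peaks most. The GFP library is 1 sample, so no value here covers its spread.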
